A study of Mus musculus with 8 samples.

Results

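The interferon-induced genes described here are Irf7, Stat2, Isg15, Ifit1, Ifit3, Oasl2, Usp18, Zbp1 and Tmem140. They were chosen by gene name, and each of the 9 names matched 1 entry among the 34745 genes of the count tables. Intestinal crypts, the epithelial pits in which stem cells renew the gut lining, were sequenced as bulk RNA from wild-type (WT) mice of the C57BL/6 background at day 5. Mice of the DSS+CA group (4 libraries) were given dextran sulfate sodium (DSS), a compound that damages the mucosa and causes colitis, and CA, named cholic acid in the title of the series and one of the primary bile acids. Mice of the DSS group (4 libraries) were given DSS alone. The series' own description calls the crypts of both groups colitic, and no uninjured group was analysed here. The labels name no gut segment, dose or route and do not say whether the libraries come from separate animals, so p-values measure only the spread between these libraries, which may be technical.

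Interferons are secreted proteins that warn cells of infection. Type I and type III interferons act through different receptors, the type III receptor being prominent on gut epithelium, but both activate the kinases JAK1 and TYK2 and assemble a complex that holds STAT2 and IRF9 and binds a DNA element called the ISRE. Type II interferon, interferon gamma, is made largely by T and NK cells and acts mainly through another element, the GAS, although many genes answer to all 3 types. Of the genes described, Stat2 and Irf7 encode transcription factors of the response, Isg15 and Usp18 a ubiquitin-like tag and the protease that removes it, Ifit1 and Ifit3 proteins that bind or retain viral RNA, Oasl2 a member of the oligoadenylate synthetase-like family, Zbp1 a sensor of left-handed nucleic acids and Tmem140 a transmembrane protein.

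Promoter sequences are shown because the ISRE is the element through which type I and III interferons are known to act. RefSeq promoter windows on GRCm38.p6 reached from 250 bases before to 50 bases after the annotated start, and 7 of the 9 genes matched (all except Usp18 and Zbp1). The ISRE core was searched as GAAANNGAAA (N is any base) on both strands, and 5 of the 7 windows held it. The same letters were found in 3.49% of the 27025 promoter windows of all genes. The GAS core TTCNNNGAA, which reads the same on both strands, was found in 0 of the 7 windows and in 8.47% of all windows. Among the other type I and III interferon-induced genes listed for comparison, 20 of 51 windows held the ISRE core. Among genes biased to interferon gamma, 8 of 12 windows held it and 5 of 12 held the GAS core, so the ISRE core was not limited to genes of the type I and III response. The 250 bases before the start follow, read 5′ to 3′ on the gene's strand, with matches to the ISRE core in capitals.
Tmem140 (chr6:34862896-34863145, plus strand): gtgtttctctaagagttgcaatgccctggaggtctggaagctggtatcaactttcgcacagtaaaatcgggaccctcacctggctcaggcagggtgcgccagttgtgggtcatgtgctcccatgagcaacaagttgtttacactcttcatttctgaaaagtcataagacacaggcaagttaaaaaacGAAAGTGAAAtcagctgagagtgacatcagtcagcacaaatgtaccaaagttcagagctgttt
Isg15 (chr4:156200819-156201068, minus strand): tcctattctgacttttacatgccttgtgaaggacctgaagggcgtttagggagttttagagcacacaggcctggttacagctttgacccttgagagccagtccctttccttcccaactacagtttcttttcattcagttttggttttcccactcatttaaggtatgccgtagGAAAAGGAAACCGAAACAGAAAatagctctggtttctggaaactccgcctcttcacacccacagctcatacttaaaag
Ifit1 (chr19:34640639-34640888, plus strand): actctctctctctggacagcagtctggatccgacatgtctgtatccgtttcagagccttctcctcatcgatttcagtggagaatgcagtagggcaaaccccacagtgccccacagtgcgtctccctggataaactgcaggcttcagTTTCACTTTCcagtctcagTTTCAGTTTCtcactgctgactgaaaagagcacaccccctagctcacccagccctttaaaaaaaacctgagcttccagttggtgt
Ifit3 (chr19:34583279-34583528, plus strand): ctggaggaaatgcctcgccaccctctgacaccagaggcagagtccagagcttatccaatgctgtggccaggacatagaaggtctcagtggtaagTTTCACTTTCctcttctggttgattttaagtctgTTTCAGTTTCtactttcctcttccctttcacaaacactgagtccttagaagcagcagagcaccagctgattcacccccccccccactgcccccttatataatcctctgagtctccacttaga
Stat2 (chr10:128270248-128270497, plus strand): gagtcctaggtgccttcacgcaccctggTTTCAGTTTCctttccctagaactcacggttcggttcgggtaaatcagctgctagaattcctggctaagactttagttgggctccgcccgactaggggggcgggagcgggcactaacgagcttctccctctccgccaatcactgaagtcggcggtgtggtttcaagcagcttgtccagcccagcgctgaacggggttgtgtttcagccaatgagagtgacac
Isg15 held 3 overlapping matches that began 78, 72 and 66 bases before the start. Ifit1 held 2, from 104 and 85 bases before it, and Ifit3 held 2, from 156 and 122 bases before it. Tmem140 held 1 match from 63 bases before the start on the gene's strand, and Stat2 held 1 from 222 bases before it on the other strand. The windows of Irf7 and Oasl2 did not hold these letters. A match describes the sequence and is not evidence of binding.

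**Figure D1:**
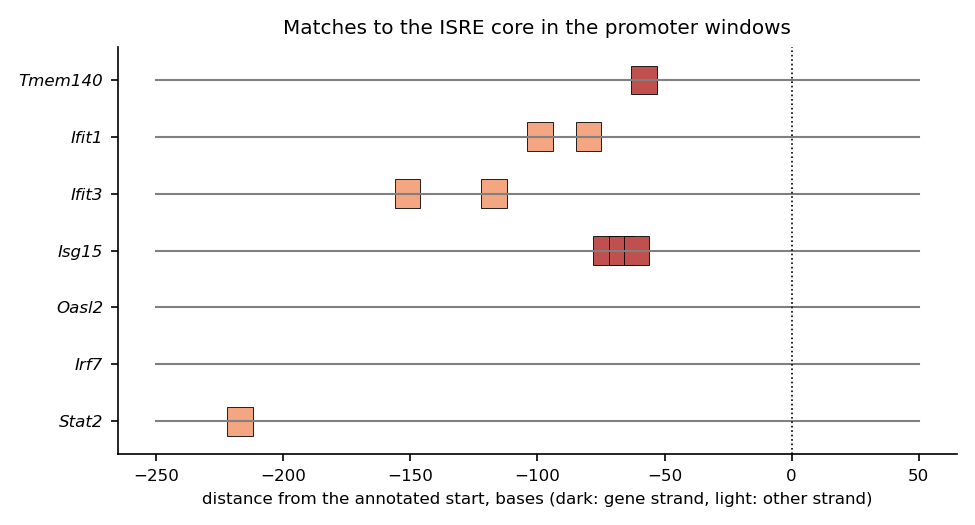
Positions of matches to the ISRE core (GAAANNGAAA) in 7 promoter windows, with distance from the annotated start in bases on the x axis; dark boxes lie on the gene's strand and light boxes on the other strand. Matches of Tmem140, Ifit1, Ifit3 and Isg15 began between 63 and 156 bases before the start, and the match of Stat2 began 222 bases before it.

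Total counts lay between 13334012 and 17973196 per library. Libraries of both groups differed in the length of the genes that took their reads (a count-weighted harmonic mean of the lengths behind the deposited FPKM), which was 1445, 1423 and 1448 bases in DSS+CA 3, DSS 2 and DSS 3 and 1719 to 2412 bases elsewhere. DSS+CA 3 was the highest of its group for 41.5% of the 9913 tested genes and the lowest for 46.5%. These 3 libraries were therefore left out in one further fit, and another kept all libraries with that length as a covariate. Both fits were added after the data were seen. Mitochondrial genes took 9.72, 14.1, 20.5 and 13.2% of the counts in DSS+CA 1 to 4, against 16.2, 27.7, 17.8 and 19.8% in DSS 1 to 4. The share was lower on average in DSS+CA, with overlapping groups, and its part in the differences of the 9 genes was not tested beyond a fit without mitochondrial genes, in which 1 of the 9 passed. The summed level of 9 epithelial markers was 10892 to 11590 CPM in DSS+CA and 10495 to 11915 CPM in DSS (CPM, read counts scaled to library size), and the colon-enriched genes Car1 and Hoxb13 had 0 counts in DSS+CA and together 2 counts in DSS. All CPM were scaled by the TMM method.

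All 9 genes passed the filter for testing and all 9 were lower on average in DSS+CA. Tmem140 was the 1 gene of the 9 that passed the test over all genes, and it fell 6.63-fold. The other 8 had log2 fold changes between -2.47 and -0.82 with edgeR adjusted p-values between 0.110 and 0.504. Lower calls made up 0.0908% of the 9913 tested genes. At an unadjusted p below 0.05, all 9 genes were lower, against 4.85% of all tested genes. The groups did not overlap in 6 of the 9, with DSS+CA lower, against 2.81% of all tested genes. The 9 genes were chosen with earlier results of these data known, so these shares describe them and are not a test of the set. The median log2 fold change of the 9 was -1.54, beside 0.018 over all tested genes. In bulk crypt RNA, fewer cells of a type and less RNA per cell cannot be told apart.

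**Figure D2:**
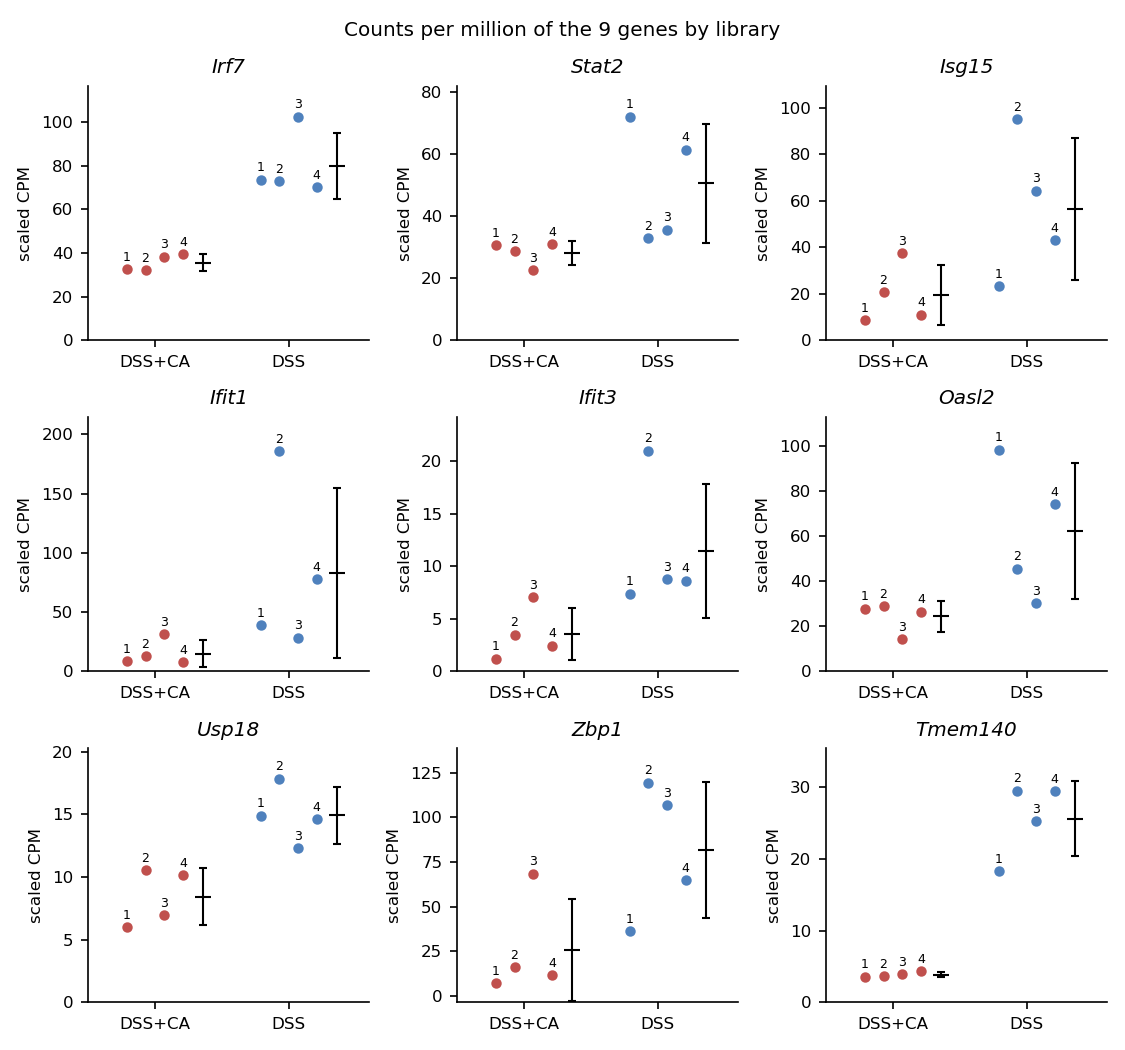
Scaled CPM (y axis, linear) of each of the 9 genes in the 4 DSS+CA libraries and the 4 DSS libraries (x axis); numbers are replicate numbers, the bar and whiskers are the mean and SD (n = 4). Tmem140 lay between 3.59 and 4.31 CPM in DSS+CA and between 18.3 and 29.4 CPM in DSS, and Isg15, Ifit1 and Zbp1 overlapped through DSS+CA 3.

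Tmem140 (ENSMUSG00000057137, chromosome 6 from 34863146 to 34874946) was at 3.59, 3.61, 3.89 and 4.31 CPM in DSS+CA 1 to 4, against 18.3, 29.4, 25.2 and 29.4 CPM in DSS 1 to 4. All DSS+CA libraries lay within a narrow range far below the lowest DSS library, DSS 1. The means were 3.85 ± 0.334 CPM in DSS+CA and 25.6 ± 5.25 CPM in DSS (SD, n = 4 each), a log2 fold change of -2.73 (SE 0.293, edgeR adjusted p = 0.00293). It was the gene with the 4th smallest p of all tested. With each library left out in turn the log2 fold change stayed between -2.86 and -2.66, and the adjusted p between 0.00354 and 0.0426. The counts behind these values were 242 in DSS+CA and 1538 in DSS. The antisense gene 3110062M04Rik overlaps the locus and had 140 counts in DSS+CA and 108 in DSS.

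Both transcription factor genes were lower in every DSS+CA library than in any DSS library. Irf7 (ENSMUSG00000025498, chromosome 7 from 141262706 to 141266481), which drives later production of type I interferon, was at 32.5, 32.3, 38.3 and 39.6 CPM in DSS+CA 1 to 4, against 73.7, 72.8, 102 and 70.3 CPM in DSS 1 to 4. The groups were well apart, with the highest DSS+CA value far below the lowest DSS value. Its log2 fold change was -1.16 (SE 0.261, edgeR adjusted p = 0.110), and it passed in the fit without DSS+CA 3, DSS 2 and DSS 3 (-1.08, adjusted p = 0.0209). Phrf1 overlaps Irf7 on the opposite strand, with 1898 counts in DSS+CA and 1617 in DSS, and the strand setting of the counts is not given in the sources used here.

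Stat2 (ENSMUSG00000040033, chromosome 10 from 128270576 to 128292849), a subunit of the complex that type I and III interferons assemble, was at 30.6, 28.7, 22.6 and 31.1 CPM in DSS+CA 1 to 4, against 72.0, 33.0, 35.7 and 61.4 CPM in DSS 1 to 4. The groups did not overlap, but DSS 2 and DSS 3 lay just above the DSS+CA libraries and DSS 1 and DSS 4 far above them. The log2 fold change was -0.84 (SE 0.319, edgeR adjusted p = 0.476). Without DSS+CA 3, DSS 2 and DSS 3 it was -1.18 (adjusted p = 0.0165).

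Isg15 (ENSMUSG00000035692, chromosome 4 from 156199424 to 156200818), the tag that is joined to other proteins, was at 8.82, 20.7, 37.4 and 11.1 CPM in DSS+CA 1 to 4, against 23.4, 95.0, 64.4 and 43.2 CPM in DSS 1 to 4. Both groups spanned about the same factor, 4.24 from lowest to highest in DSS+CA and 4.06 in DSS, and DSS+CA 3 lay above DSS 1. The log2 fold change was -1.54 (SE 0.526, edgeR adjusted p = 0.376), and -1.33 (adjusted p = 0.0815) without DSS+CA 3, DSS 2 and DSS 3.

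Usp18 (ENSMUSG00000030107, chromosome 6 from 121245906 to 121270917), which removes ISG15 from proteins and also damps the type I receptor, was at 6.02, 10.6, 6.95 and 10.1 CPM in DSS+CA 1 to 4, against 14.9, 17.8, 12.3 and 14.6 CPM in DSS 1 to 4. The groups did not overlap, with DSS 3 the nearest to DSS+CA. Its log2 fold change of -0.82 (SE 0.300, edgeR adjusted p = 0.439) was the smallest of the 9 in size, and Usp18 passed in none of the 16 alternative fits.

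Ifit1 (ENSMUSG00000034459, chromosome 19 from 34640871 to 34650009), which binds viral RNA lacking the host cap methylation, was at 8.50, 12.7, 31.3 and 7.74 CPM in DSS+CA 1 to 4, against 39.0, 186, 28.6 and 78.0 CPM in DSS 1 to 4. DSS+CA 3 lay just above DSS 3, and DSS 2 stood far above every other library. The log2 fold change was -2.47 (SE 0.646, edgeR adjusted p = 0.177). It ranged from -3.10 without DSS+CA 3 (adjusted p = 0.0494) to -1.70 without DSS 2 (adjusted p = 0.405).

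Ifit3 (ENSMUSG00000074896, chromosome 19 from 34583531 to 34588731), a partner of IFIT1 proteins, was at 1.21, 3.48, 7.05 and 2.45 CPM in DSS+CA 1 to 4, against 7.38, 21, 8.75 and 8.62 CPM in DSS 1 to 4. The highest DSS+CA library, DSS+CA 3, nearly reached the lowest DSS library, DSS 1. The log2 fold change was -1.71 (SE 0.541, edgeR adjusted p = 0.314). Of the 50-base stretches of its annotated transcript, 51.2% also occur in transcripts of Ifit3b, so its reads are uncertain. For Ifit1 the share found in any other gene was 7.13%, mostly Ifit1bl2, and for each of the other 7 genes it was at most 3.96%. Ifit3b itself had 42 counts in DSS+CA and 155 in DSS.

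Oasl2 (ENSMUSG00000029561, chromosome 5 from 114896936 to 114912234) was at 27.8, 29.1, 14.2 and 26.6 CPM in DSS+CA 1 to 4, against 98.5, 45.7, 30.4 and 74.2 CPM in DSS 1 to 4. DSS 3 lay just above the 3 highest DSS+CA libraries, and DSS+CA 3 stood below the rest of its group. The log2 fold change was -1.35 (SE 0.398, edgeR adjusted p = 0.259). Without DSS+CA 3, DSS 2 and DSS 3 it was -1.67 (adjusted p = 0.00977).

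Zbp1 (ENSMUSG00000027514, chromosome 2 from 173206612 to 173218923), which can start necroptosis through RIPK3, was at 7.34, 16.1, 68.5 and 11.8 CPM in DSS+CA 1 to 4, against 36.5, 119, 107 and 64.8 CPM in DSS 1 to 4. DSS+CA 3 lay above DSS 1 and DSS 4, whereas the other DSS+CA libraries lay below every DSS library. The log2 fold change was -1.66 (SE 0.658, edgeR adjusted p = 0.504). Without DSS+CA 3 it was -2.80 (adjusted p = 0.0390), and Zbp1 was one of 3 of the 9 genes lower there, with Ifit1 and Tmem140, against 0.656% of all tested genes.

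Leaving out DSS+CA 3, DSS 2 and DSS 3 gave 7 of the 9 genes as lower, all except Isg15 and Usp18, against 4.25% of all tested genes in that fit. With counted gene length as a covariate, 8 of the 9 were lower, all except Usp18, against 3.27% of all tested genes. The direction was the same in all 16 alternative fits for all 9 genes. The fit without 3 libraries sets DSS+CA 1, 2 and 4 against DSS 1 and 4, which the fit over all libraries also used, so it is no independent support.

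**Figure D3:**
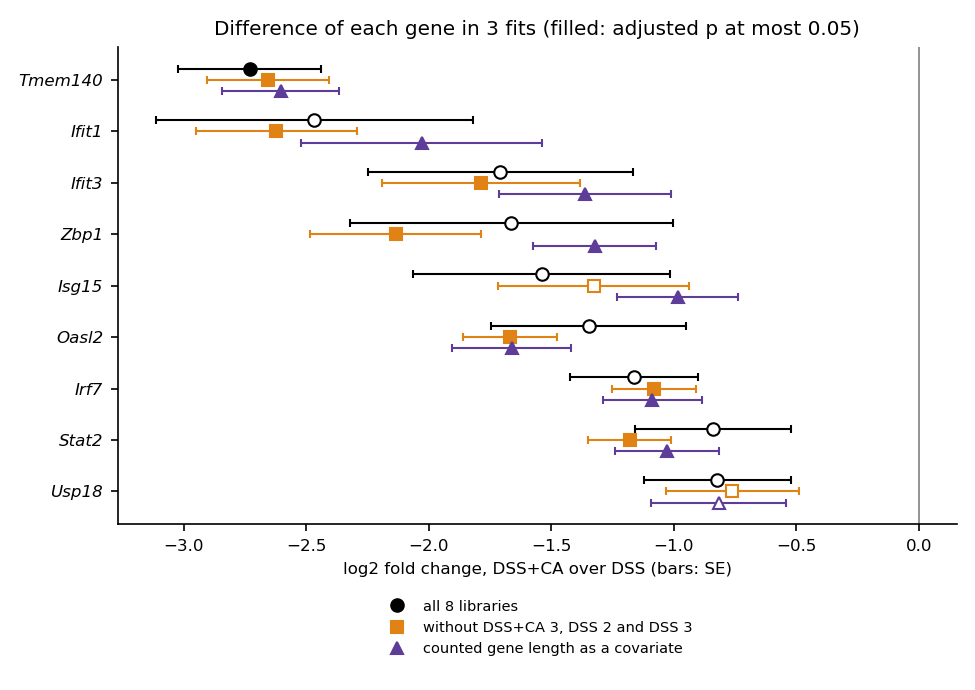
Log2 fold change of each gene, DSS+CA over DSS (x axis; whiskers are the SE), in the fit of all 8 libraries, in the fit without 3 libraries and in the fit with counted gene length as a covariate; filled symbols have an adjusted p of at most 0.05. Every value lies below 0, and Tmem140 alone is filled in all 3 fits while Usp18 is filled in none.

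Levels can be set side by side between genes only per length. The deposited FPKM used a length above the annotated exon length for 5 of the 9 genes, so CPM were divided by the length of all annotated exons of a gene (GENCODE M21). Isg15 was the most abundant at 25.8 ± 17.2 CPM per kilobase in DSS+CA and 74.7 ± 40.5 in DSS (SD, n = 4 each). In DSS+CA it was followed by Irf7 (9.45 ± 1.01 CPM per kilobase), Zbp1 (7.35 ± 8.10), Ifit1 (5.67 ± 4.15), Stat2 (4.77 ± 0.659), Oasl2 (3.83 ± 1.08), Usp18 (3.02 ± 0.814), Ifit3 (2.03 ± 1.44) and Tmem140 (0.657 ± 0.0571). In DSS the order was Ifit1 (31.2 ± 27.1), Zbp1 (23.2 ± 10.8), Irf7 (21.1 ± 4.02), Oasl2 (9.76 ± 4.75), Stat2 (8.53 ± 3.24), Ifit3 (6.55 ± 3.66), Usp18 (5.34 ± 0.813) and Tmem140 (4.37 ± 0.896). Library ranges of neighbours in these orders overlapped, except that all values of Isg15 lay above those of Irf7 in DSS+CA and all values of Irf7 above those of Oasl2 in DSS. Tmem140 was thus the least abundant of the 9 per length in both groups.

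The 9 genes did not vary together within a group. DSS+CA 3 was the highest DSS+CA library for Isg15, Ifit1, Ifit3 and Zbp1 and the lowest for Stat2 and Oasl2. Over all tested genes it was the highest for 41.5% and the lowest for 46.5%, so such a split is not particular to the 9. DSS 2 was the highest DSS library for Isg15, Ifit1, Ifit3, Zbp1, Usp18 and Tmem140, while DSS 1 was the highest for Stat2 and Oasl2 and DSS 3 for Irf7. The median annotated exon length was 2200.5 bases for the 4 genes highest in DSS+CA 3 and 6150 bases for the pair lowest there. Usp18, at 2790 bases, was below its group mean in DSS+CA 3 (6.95 CPM, against a mean of 8.42 CPM). Tmem140, at 5853 bases, differed little within DSS+CA, between 3.59 and 4.31 CPM, whereas the highest value of Zbp1 there was 9.33 times its lowest. The part of gene length in these differences within a group was not tested.

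**Figure D4:**
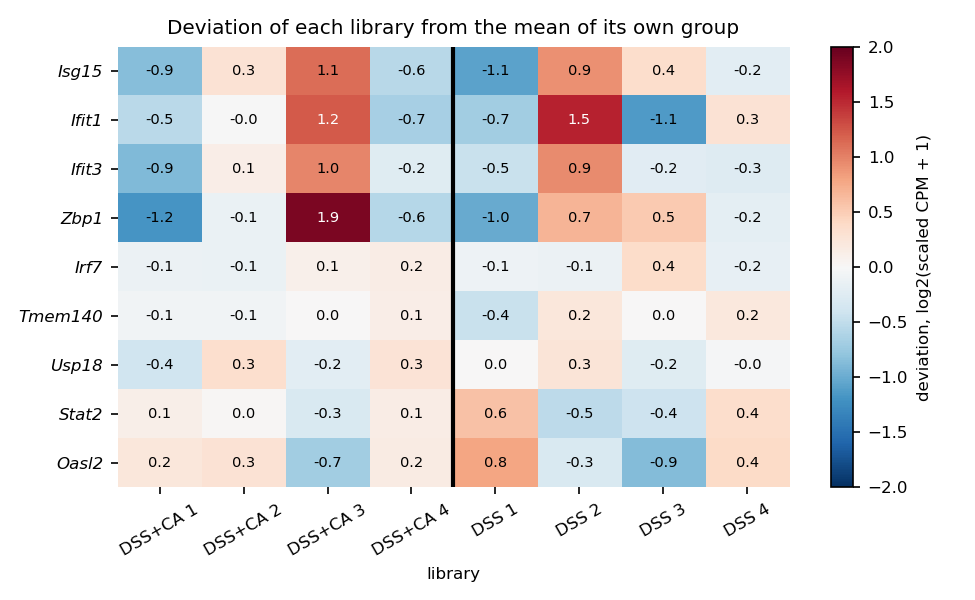
Deviation of each library from the mean of its own group, on the log2(scaled CPM + 1) scale (colour and printed value), for the 9 genes (rows) in DSS+CA 1 to 4 and DSS 1 to 4 (columns). DSS+CA 3 is high for Isg15, Ifit1, Ifit3 and Zbp1 and low for Stat2 and Oasl2.

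Other genes that type I and III interferons induce also had lower averages in DSS+CA. Levels of pathway genes are means ± SD over 4 libraries, and bare signed values are log2 fold changes with edgeR adjusted p-values. Of 64 such genes, 45 were tested and 44 of these had a log2 fold change below 0, beside 48.1% of all tested genes. The median was -0.93. At an unadjusted p below 0.05, 24 were lower, against 4.85% of all tested genes. The groups did not overlap in 12, with DSS+CA lower, against 2.81% of all tested genes. None passed over all genes with edgeR, while 14 did with DESeq2, 27 without the 3 libraries named above and 18 with the length covariate. In the same order, lower calls over all 9913 tested genes numbered 9, 169, 421 and 324. All lists, like the 9 genes, were chosen with earlier results of these data known. The smallest p-values belonged to Rtp4, a receptor transporter protein (7.13 ± 3.41 CPM in DSS+CA and 26.3 ± 9.69 CPM in DSS, -1.89, adjusted p = 0.0867), and to Trim30a, a tripartite motif protein (-2.32, adjusted p = 0.0943). They were followed by Xaf1, a partner of a cell death inhibitor (-1.69, adjusted p = 0.102), and Ddx60, a helicase (11.4 ± 4.83 CPM in DSS+CA and 71.1 ± 46.2 CPM in DSS, -2.64, adjusted p = 0.106). The 1 tested gene above 0 was Oasl1, a relative of Oasl2, at 30.6 ± 18.0 CPM in DSS+CA and 28.0 ± 19.8 CPM in DSS (0.13, adjusted p = 0.999). Of the 19 genes below the filter, 17 had counts, and all 17 were lower on average in DSS+CA. Some of the 64 also stand in the lists below, such as the ISG15 conjugation genes and Ifih1.

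Interferon transcripts themselves were nearly absent from the counts. Of 21 interferon genes, 19 had 0 counts in all 8 libraries, among them Ifnb1 and the type III genes Ifnl2 and Ifnl3. Ifna2 had 0 counts in DSS+CA and 1 in DSS. Ifng, the type II gene, had 0 counts in each DSS+CA library, against 4, 6, 3 and 12 counts in DSS 1 to 4, at least 8.67-fold lower in DSS+CA when the DSS+CA libraries together are given the floor of 3 counts. It was below the filter and was not tested. A sum of 0 counts allows up to 3, and this floor covers counting error only.

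Receptors did not share a direction. Of 6 genes, 2 were below 0 and 4 above, with a median log2 fold change of 0.068, and 0 passed (edgeR) or reached an unadjusted p below 0.05. Ifnar1 of the type I receptor was at 61.4 ± 10.4 CPM in DSS+CA and 47.1 ± 8.83 CPM in DSS (0.38, adjusted p = 0.881). Ifnlr1 of the type III receptor was at 20.7 ± 6.59 CPM in DSS+CA and 19.6 ± 6.63 CPM in DSS (0.08, adjusted p = 0.999). The largest difference was that of Ifngr1 of the type II receptor, with 133 ± 9.19 CPM in DSS+CA and 94.2 ± 15.6 CPM in DSS (0.50, adjusted p = 0.707) and groups that did not overlap, DSS+CA being higher, as in 3.24% of all tested genes.

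Of 12 kinases, STATs and interferon regulatory factors, 11 were tested, 8 were below 0 and the median was -0.34, with 0 past the threshold and 3 lower at an unadjusted p below 0.05. Irf1, a factor that interferon gamma induces strongly, was at 43.6 ± 11.7 CPM in DSS+CA and 91.3 ± 22.2 CPM in DSS (-1.07, adjusted p = 0.241). Irf9, which encodes a partner of STAT2 in the ISRE-binding complex, was at -0.58 (adjusted p = 0.599), and its groups did not overlap. The kinases Jak1 and Tyk2 were at 0.025 and 0.0018, each with adjusted p = 0.999. The self-limiting side of the response was mixed: 7 of 12 tested negative regulators were below 0 (median -0.11, 0 passed), and the smallest p was that of Optn, an adaptor of autophagy, at -0.74 (adjusted p = 0.496).

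The ISG15 conjugation genes were all below 0 (4 of 4, median -0.85, 0 passed), with the ligase gene Herc6 at -2.25 (adjusted p = 0.155), the E1 enzyme gene Uba7 at -0.95 (adjusted p = 0.297), Trim25 at -0.76 and the E2 enzyme gene Ube2l6 at -0.24. Among nucleic acid sensors and adaptors, 10 of 12 tested genes were below 0 (median -0.58, 0 passed), led by the RNA sensor gene Ifih1 at -0.93 (adjusted p = 0.569). The cell death partners of ZBP1 lay on both sides of 0. Ripk3, the necroptosis kinase, was at 60.9 ± 10.8 CPM in DSS+CA and 28.8 ± 4.04 CPM in DSS (1.08, adjusted p = 0.147) with groups that did not overlap, and its substrate Mlkl was at 0.09. Of the 5 partners, 2 were below 0 and 0 passed.

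Genes biased to interferon gamma, a list that shares Irf1 with the factors above, also had lower averages. Of 19 entries, 9 were tested and all 9 were below 0, with a median of -1.69 and 0 past the threshold (edgeR). The groups did not overlap in 6, with DSS+CA lower, against 2.81% of all tested genes. The other 10 entries were below the filter, and all 10 had lower means in DSS+CA. Gbp2, a guanylate-binding protein, was at 2.08 ± 0.858 CPM in DSS+CA and 7.47 ± 1.16 CPM in DSS (-1.84, adjusted p = 0.0880), and Ido1, which breaks down tryptophan, at 7.39 ± 6.44 CPM in DSS+CA and 56.2 ± 30.5 CPM in DSS (-2.94, adjusted p = 0.0990). No test compared this list with the 9 genes.

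**Figure D5:**
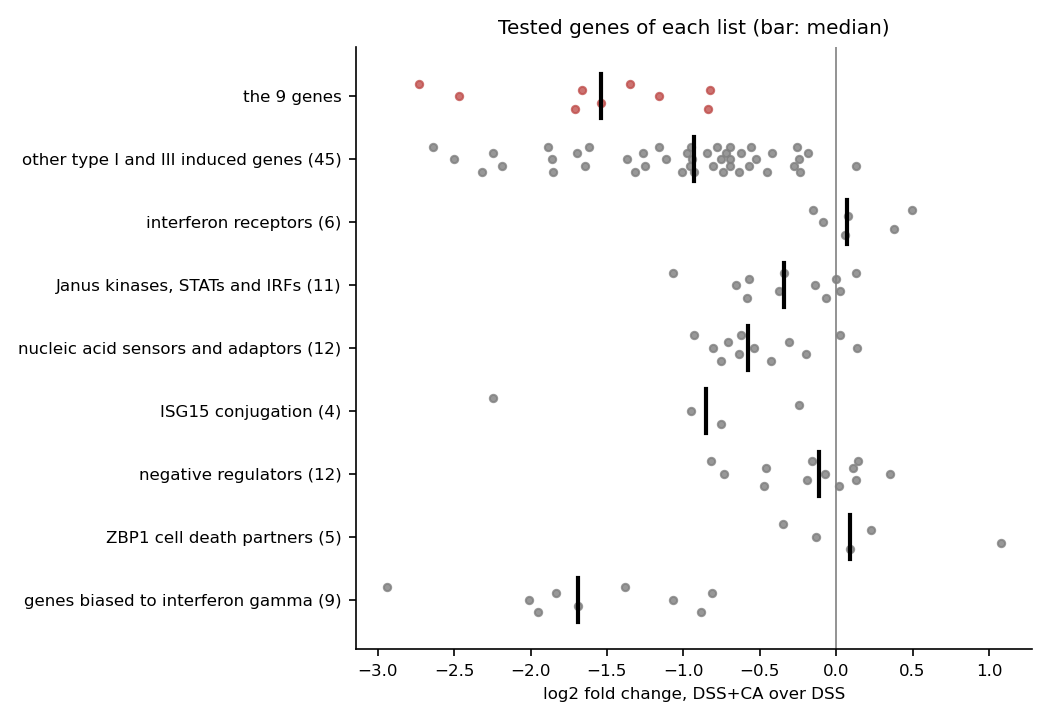
Log2 fold change, DSS+CA over DSS (x axis), of every tested gene of each list (points; number tested in brackets), with the median as a bar. The 9 genes and the 9 genes biased to interferon gamma lie wholly below 0, and the receptors and the partners of ZBP1 lie on both sides of 0.

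Markers of lymphocytes were lower on average beside these genes. The summed level of 15 T and NK cell markers was 138, 314, 1205 and 308 CPM in DSS+CA 1 to 4, against 687, 2274, 2139 and 1315 CPM in DSS 1 to 4. The exact two-sided permutation test over the 70 assignments gave p = 0.0571 (0.143 adjusted over 10 marker lists), and all 14 tested markers were below 0. DSS+CA 3 and DSS 2 had the highest sum of their groups, and they were also the highest for Zbp1, Isg15, Ifit1 and Ifit3. For Stat2 and Oasl2, however, DSS+CA 3 was the lowest of its group. Over all tested genes it was the highest of its group for 41.5%. Both libraries had short counted genes (1445 bases in DSS+CA 3 and 1423 in DSS 2), and the part of that length was not tested. Single markers did not all follow the sum, of which Gzma, a granzyme of cytotoxic cells, made up 853 CPM in DSS+CA 3. For Itgae, DSS+CA 3 and DSS 2 were the lowest of their groups, at 8.18 and 32.0 CPM. Itgae, an integrin of T cells within the epithelium, passed over all genes (-1.90, edgeR adjusted p = 0.0380), and Cd8a was at -1.57 (adjusted p = 0.0502).

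The B and plasma cell markers summed to 13.8 to 28.2 CPM in DSS+CA and 54.2 to 82.3 CPM in DSS, and those of macrophages and dendritic cells to 4.17 to 9.61 CPM in DSS+CA and 16.3 to 24.0 CPM in DSS. In the first list 5 of 9 markers were below the filter for testing, and in the second 9 of 10. For each of these 2 lists the groups did not overlap, and the exact permutation p was 0.0286, the smallest that the design allows (0.143 adjusted). All marker lists were chosen with earlier results of these data known, so their permutation p-values only describe the sums. Siglech, a defining marker of plasmacytoid dendritic cells, which can make large amounts of type I interferon, had 2 counts in DSS+CA and 24 in DSS. The 5 genes of that marker list summed to 51.8 to 89.0 CPM in DSS+CA and 54.3 to 71.4 CPM in DSS. With 3856 counts in DSS+CA and 3604 in DSS, nearly all of this sum came from genes other than Siglech. Whether those counts came from plasmacytoid dendritic cells was not tested. Neutrophil markers summed to 13 counts in DSS+CA and 18 in DSS, with Cxcr2 at 0. Stromal and endothelial markers summed to 4.40 to 7.72 CPM in DSS+CA and 7.55 to 14.8 CPM in DSS (exact permutation p = 0.0571, 0.143 adjusted). All 10 of these markers were below the filter for testing, with 355 counts in DSS+CA and 669 in DSS. The part of these cells in the differences of the 9 genes was not tested.

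The genes whose profile over the 8 libraries was most like the mean profile of the 9 were Sectm1b, Upp1, Xaf1, Trac, Sepp1 and Ctsw. Likeness was the root mean square difference between centred profiles of log2(CPM + 1), which was 0.165 for Sectm1b, 0.168 for Upp1, 0.176 for Xaf1, 0.191 for Trac, 0.196 for Sepp1 and 0.205 for Ctsw, beside a median of 0.954 over all tested genes. Upp1 encodes a uridine phosphorylase, Sepp1 a selenium carrier, Trac the constant region of the T cell receptor alpha chain and Ctsw a protease of cytotoxic lymphocytes. The groups did not overlap in any of the 6, against 2.81% of all tested genes with DSS+CA lower. This largely follows from how the 6 were picked: in the mean profile of the 9, every DSS+CA value lay below every DSS value. Sectm1b was at 157 ± 56.6 CPM in DSS+CA and 386 ± 48.3 CPM in DSS (SD, n = 4 each), and Ctsw at 4.58 ± 1.15 CPM in DSS+CA and 16.6 ± 2.41 CPM in DSS (edgeR adjusted p = 0.0502). Of the 9 genes themselves, Ifit3 lay nearest to their mean profile (0.341) and Zbp1 farthest from it (0.750).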

How the data were processed

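Library kits were RNeasy Micro for the RNA and TruSeq Stranded Total RNA, per the labels' protocols. Each deposited table holds the authors' raw count and FPKM of every gene in 1 library, per the file headers. The submitters' processing notes name HISAT2, StringTie, GRCm38 and mm10 without versions. How reads were counted, and on which strand, is not given in the sources used here. Coordinates are those of the deposited tables.

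A gene was tested if its FPKM reached 1 in 4 or more of the 8 libraries (9913 genes). The raw counts went into edgeR 4.0.16 (R 4.3.3), with TMM scaling, the quasi-likelihood test and group as the only term. P-values were two-sided and adjusted after Benjamini and Hochberg across these genes, with 0.05 as the threshold. A log2 fold change is DSS+CA over DSS, and its SE is the size of the change divided by the root of the F statistic. The common biological coefficient of variation was 0.416. Alternatives were DESeq2 1.42.0, RLE scaling, other gene filters, a replicate block, a covariate and left-out libraries. The procedure was tested on simulated data.

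The 9 genes and all lists were chosen with earlier results of these data known. Named genes were the 9, up to 4 tested genes with the smallest p in a pathway list and up to 2 in a marker list, and the 6 with the most similar profile. Oasl1, Ifit3b, Siglech, Gzma, Ifnar1, Ifnlr1, Mlkl, Jak1 and Tyk2 are also named, for their roles or as exceptions, after their values were seen. One gene of the pathway lists is not reported here by name.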

Additional observations from a re-analysis of the deposited data

Results flagged for a closer look

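In 18 groups of 4 libraries (9 genes, each in DSS+CA and in DSS), 4 held a library far from the others by Dixon's ratio, the gap to the nearest library over the whole range. Chance gives about 1 such group in 20 if values are normally distributed. The 18 groups come from the same libraries and are not independent, so that rate is only a rough guide. Zbp1 was at 68.5 CPM in DSS+CA 3 and between 7.34 and 16.1 CPM in the other DSS+CA libraries. Oasl2 was at 14.2 CPM in DSS+CA 3 and between 26.6 and 29.1 CPM in the others. Ifit3 was at 21 CPM in DSS 2 and between 7.38 and 8.75 CPM in the other DSS libraries. Irf7 was at 102 CPM in DSS 3 and between 70.3 and 73.7 CPM in the others. All 4 fell on DSS+CA 3, DSS 2 and DSS 3, the libraries with the shortest counted genes.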

How the results depend on the processing

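With edgeR over all 8 libraries, 4 of all tested genes were higher in DSS+CA and 9 lower, among them 1 of the 9 genes and 0 of the other interferon-induced genes. In the same order, the counts were 7, 20, 1 and 0 with RLE scaling, 18, 61, 1 and 5 with no filter, 8, 19, 1 and 0 without mitochondrial genes, and 51, 169, 4 and 14 with DESeq2. They were 234, 421, 7 and 27 without DSS+CA 3, DSS 2 and DSS 3, and 294, 324, 8 and 18 with counted gene length as a covariate. Leaving out each library in turn gave 0 to 19 higher and 4 to 65 lower genes, 1 to 3 of the 9 and 0 to 3 of the others, with the highest counts, 19, 65 and 3 of the 9, without DSS+CA 3. A replicate block gave 14 higher and 51 lower genes, with 2 of the 9 (Zbp1 and Tmem140) and 2 of the others. The deviations of same-numbered libraries from their group means correlated at 0.752, -0.344, 0.105 and 0.197. Libraries also differed in counted gene length, so these values cannot settle whether the replicate numbers pair the libraries. The causes of these differences were not tested. For single genes, 125 of 144 values kept their direction and their side of the threshold, 19 newly passed it and 0 changed direction. Tmem140 passed in all 16 alternatives, with an adjusted p of at most 0.0426.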
